A study of Mus musculus with 4 samples.

Results

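B117H, a mouse leukaemia line highly resistant to cytarabine (Ara-C), was compared with B117P, the sensitive parental line it was derived from. Both are acute myeloid leukaemia lines from BXH-2, an inbred mouse strain whose endogenous retroviruses cause myeloid leukaemia. Per the labels, the IC50 of Ara-C was about 150 ng/ml in B117P and about 160 µg/ml in B117H, which differ by a factor of 1067. The series holds 4 libraries, and a second pair, the sensitive B140P (IC50 about 110 ng/ml) and the highly resistant B140H derived from it (about 60 µg/ml), is used here only to set values side by side. The same growth and treatment notes stand on all 4 records, namely passage in ASM medium without the drug and exposure to rising Ara-C, so the sensitivity and IC50 labels are what separates a parental from a resistant line. Whether B117H is 1 clone is not given in the sources used here.

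Total RNA of each line was sequenced as 1 library, and the deposited value is FPKM, which scales fragments to transcript length and to library size. Of 21889 genes listed, 692 small RNA genes were left out, and 9995 of the other 21197 had a mean FPKM of 1 or more over B117P and B117H and were compared. The measure is the log2 ratio of FPKM + 1, B117H over B117P, and a gene is called higher or lower where this ratio is at least 2-fold. The added 1 makes the ratio smaller than the true one for genes at low FPKM. With 1 library a side no value has a replicate error and no difference could be tested, so every "higher", "lower", "rose" or "fell" below means past the 2-fold rule between these 2 libraries. From the spacing of low FPKM values the depth was estimated at 22160000 fragments in B117P and 19660000 in B117H. At those depths 3 fragments on a transcript of 2 kb correspond to 0.0677 and 0.0763 FPKM, and values near or under these rest on very few fragments.

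Ara-C is a deoxycytidine analogue that enters cells through nucleoside transporters, is phosphorylated in steps that start with deoxycytidine kinase, and blocks DNA synthesis as its triphosphate. Myeloid leukaemia cells resemble progenitors held on the way from a common myeloid precursor to granulocytes and monocytes. Such cells carry stem cell surface proteins beside the enzymes of primary (azurophil) granules, which are made early in granulocyte differentiation.

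The labelled cell type was checked against its markers. All 11 myeloid markers were at 1 FPKM or more in B117P and 10 of 11 in B117H, where the receptor gene Csf3r was at 0.286. Their summed level was 1965 FPKM in B117P and 880 in B117H. Mpo, at 1450 and 473 FPKM, made up most of both sums and of their difference, so the sums do not describe the other markers. Cd34, a surface protein of haematopoietic progenitors, was at 199.8 FPKM in B117P and 206 in B117H, and Kit, the stem cell factor receptor, at 29.9 and 34.2 FPKM. The transcription factor genes Sfpi1, which encodes PU.1, and Cebpa were at 111 and 43.3 FPKM in B117P and at 81.3 and 36.0 FPKM in B117H. Of 27 markers of other cell types, 3 were at 1 FPKM or more in B117P and 2 in B117H. These were the protease gene Mcpt8 (25.5 and 20.9 FPKM), from the markers of mast cells and basophils, and the platelet gene Gp9 (1.53 and 1.49 FPKM). In B117P only, the globin gene Hbb-b1 was also among them (2.77 FPKM, listed at 0 in B117H). Cpa3 and Fcer1a, the other markers of mast cells and basophils, were at 0.0329 and 0 FPKM in B117P and at 0.110 and 0 in B117H. The B cell gene Pax5, the T cell genes Cd3e and Cd4 and all 3 epithelial markers were listed at 0 in both libraries. The summed level of the 4 B cell markers was 0.400 FPKM in B117P and 0.0658 in B117H, and that of the 3 fibroblast markers was 0.126 and 0.0904.

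In all, 145 genes were higher in B117H, 1.45% of the 9995 compared, and 315 were lower, 3.15%. The median log2 ratio of all compared genes was -0.03, and 8140 genes (81.4%) lay within 0.5 of zero. The median gene among the 145 went from 1.63 to 6.97 FPKM and the median gene among the 315 from 16.2 to 4.65 FPKM. Rises were thus often of genes with a low level in B117P. Of the 145 higher genes, 55 were under 1 FPKM in B117P, and of the 315 lower genes, 71 were under 1 FPKM in B117H. Among the 697 genes with a mean of 100 FPKM or more, 1 was higher and 22 were lower, while among the 1254 genes with a mean of 1 to 3 FPKM, 54 were higher and 62 lower. Just inside the rule were Emr1 (1.06 to 3.14 FPKM, log2 ratio 1.01) and Hist1h4f (3.60 to 1.30 FPKM), and just outside it Pisd-ps1 (5.79 to 12.5 FPKM, log2 ratio 0.99) and Tuba8 (19.9 to 9.44 FPKM).

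**Figure D1:**
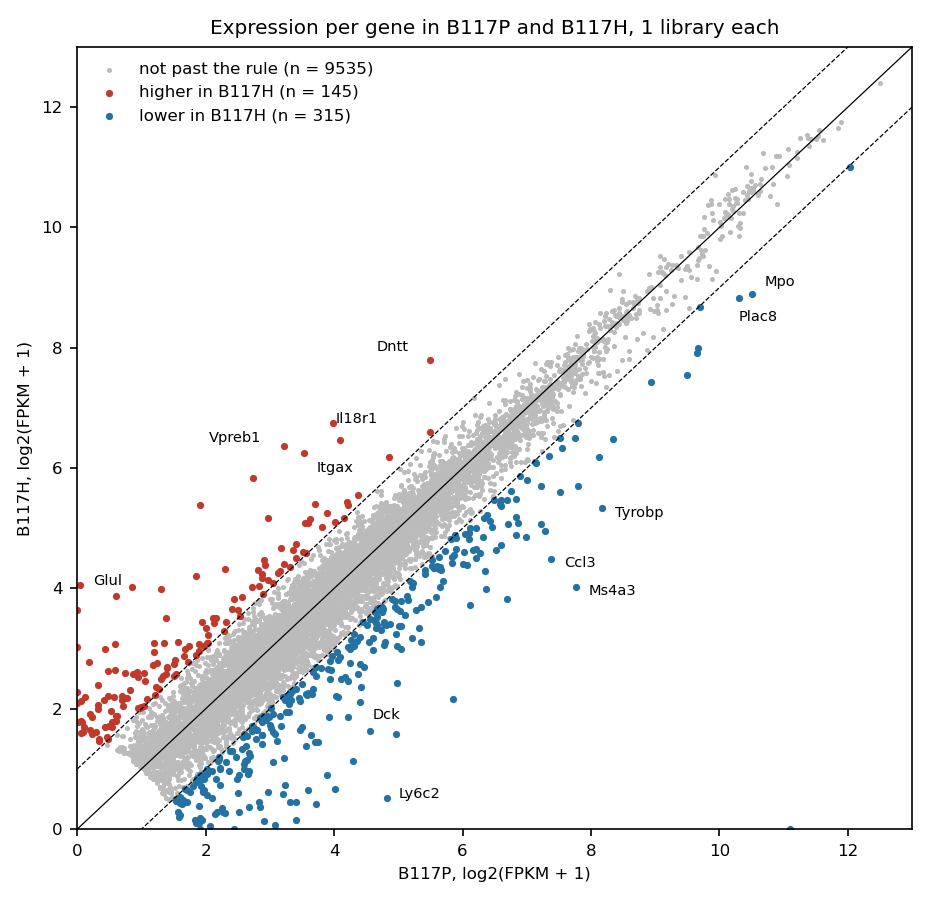
Each point is 1 of the 9995 genes compared, with log2(FPKM + 1) in B117P on the x axis and in B117H on the y axis, 1 library each. The solid line marks equal values and the dashed lines the 2-fold rule; the 145 higher genes (red) often lie at low B117P values, while the 315 lower genes (blue) include abundant messages such as Mpo and Plac8.

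Dck, the kinase of the first activating step of Ara-C, was among the genes of drug metabolism that fell. It was at 20.1 FPKM in B117P and at 3.31 in B117H, 16.5% of the parental value. The log2 ratio was -2.29, and that of the B140 pair was -2.45. Dck lies at chr5:89194038-89212302 in the mm9 build, and its 10 nearest expressed neighbours, 5 on each side, had a median log2 ratio of -0.64. Of the 35 expressed genes of Ara-C uptake and metabolism, 1 was higher (2.86%, beside 1.45% of all compared genes) and 2 were lower (5.71%, beside 3.15%). The other 32 were neither, and the list's median was 0.01. Nt5e, a nucleotidase on the cell surface, fell to 36.3% of the parental FPKM (26.4 to 9.58). Nt5c3l, another nucleotidase gene, was higher (4.42 and 13.2 FPKM), and its span as listed overlaps Fkbp10.

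The 32 other members of this list had ratios under 2-fold, and the examples below were chosen after their values were seen. Uptake was represented by Slc29a1, at 50.3 FPKM in B117P and 50.1 in B117H, and Slc29a2, at 3.93 and 2.70 FPKM. For the second phosphorylation, Cmpk1 was at 58.7 and 67.7 FPKM. For the third, Nme2 was at 412 and 462 FPKM. Deamination of the monophosphate was represented by Dctd, at 14.1 and 11.3 FPKM. Tk1, the thymidine kinase of dividing cells, had a log2 ratio of -0.61 (58.0 and 37.5 FPKM), the lowest of the list after Dck and Nt5e. The ribonucleotide reductase subunit genes Rrm1 and Rrm2 were at 73.2 and 83.4 FPKM in B117P and at 95.3 and 111 FPKM in B117H.

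Genes of granulocyte differentiation were lower in B117H. Of the 22 expressed genes of the neutrophil and granulocyte list, 11 fell (50% of them, beside 3.15% of all compared genes), none was higher and 11 were neither. The list's median log2 ratio was -0.99, beside -0.03 for all genes. Fewer cells of a type and less RNA per cell cannot be told apart in bulk RNA. 

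The azurophil granule enzymes fell by unequal amounts. Mpo, myeloperoxidase, was at 1450 FPKM in B117P and at 473 in B117H. Elane, neutrophil elastase, was at 81.1 and 14.8 FPKM, 18.3% of the parental value. Prtn3, proteinase 3, was at 488 and 172 FPKM, and was chosen after its values were seen. Ctsg, cathepsin G, did not pass the rule, with 735 and 402 FPKM and a log2 ratio of -0.87. Elane and Prtn3 are neighbours on chromosome 10 and Mpo lies on chromosome 11. The promoters of these 3 genes are shown because they fell together and because PU.1, a regulator of granule enzyme genes, has a short known core motif. They were picked with their matches known, out of 9 lower genes whose promoters hold the motif, among 246 lower genes with a promoter. They are the 250 bases before each start, 5′ to 3′ on the gene's strand, from RefSeq's table for the GRCm38.p6 build, at chr10:79886062-79886311 for Elane, chr10:79879417-79879666 for Prtn3 and chr11:87793534-87793783 for Mpo, all on the plus strand. Capitals mark each match to GAGGAAGT, a PU.1 core motif searched on both strands.
Elane: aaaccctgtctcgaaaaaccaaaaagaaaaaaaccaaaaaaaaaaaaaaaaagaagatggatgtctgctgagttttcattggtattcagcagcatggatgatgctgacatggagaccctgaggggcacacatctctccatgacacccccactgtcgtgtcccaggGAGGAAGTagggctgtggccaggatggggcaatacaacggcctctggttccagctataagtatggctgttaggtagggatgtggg
Prtn3: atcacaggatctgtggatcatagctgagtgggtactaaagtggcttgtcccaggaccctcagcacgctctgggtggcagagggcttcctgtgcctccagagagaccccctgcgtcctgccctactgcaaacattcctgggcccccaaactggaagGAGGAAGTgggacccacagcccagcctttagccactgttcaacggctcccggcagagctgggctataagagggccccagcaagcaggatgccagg
Mpo: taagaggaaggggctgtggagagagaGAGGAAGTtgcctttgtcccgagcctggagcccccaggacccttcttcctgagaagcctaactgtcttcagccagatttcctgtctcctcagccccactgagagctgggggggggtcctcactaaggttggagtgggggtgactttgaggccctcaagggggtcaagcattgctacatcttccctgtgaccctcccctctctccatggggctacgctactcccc
The match begins 85 bases before the start in Elane, 95 bases in Prtn3 and 224 bases in Mpo. Of all 27025 promoters of that table, cut to the same 250 bases, 2.44% hold the motif on either strand, and 2.51% of those of the compared genes do. A promoter was found for 8044 of the 9995 compared genes (80.5%), but for only 73.8% of the higher and 78.1% of the lower genes, so a comparison of motif shares between them is void. A match describes letters and not a bound site, and Sfpi1 itself did not pass the rule.

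Beyond the granule enzymes, Ms4a3, a membrane protein of progenitors of both myeloid branches, fell from 218 to 15.3 FPKM, to 7.04% of the parental value. Csf3r, the receptor of the growth factor G-CSF, was at 6.19 and 0.286 FPKM, and Dmkn, dermokine, from 8.94 to 0.364 FPKM. Some members of the list did not pass the rule. The alarmin genes S100a8 and S100a9 were at 13.5 and 10.1 FPKM in B117P and at 9.85 and 8.19 in B117H, and Cxcr2, a chemokine receptor of neutrophils, was at 28.8 and 34.4 FPKM. Those 3 genes were chosen after their values were seen.

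Monocyte and macrophage genes were lower as well. Of 31 expressed members 11 fell (35.5%, beside 3.15% of all compared genes), 2 rose (6.45%, beside 1.45%) and the other 18 passed neither way, with a median log2 ratio of -0.55. Ly6c2, a surface protein of inflammatory monocytes, had the lowest ratio of the named genes and fell from 27.2 to 0.433 FPKM, although reads of Ly6 paralogs can be shared. F13a1, a subunit of a clotting factor, was at 6.82 and 0.533 FPKM. Spp1, the secreted protein osteopontin, fell from 149 to 32.8 FPKM, and Trem2, a lipid receptor of macrophages, from 3.90 to 0.203 FPKM. The 2 rises were of Emr1, which encodes the macrophage antigen F4/80, and of Fn1, fibronectin (1.85 to 5.69 FPKM). Cd14 fell from 37.8 to 11.5 FPKM and Ly86, a partner of a Toll-like receptor homologue, from 107 to 48.0 FPKM. They were the only falls among 48 expressed Toll-like receptor and innate sensor genes (4.17% of them). Casp4 was the single rise there (2.08%), from 0.935 to 3.02 FPKM.

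Lists of the lymphoid and dendritic lineages held rises. Of 15 expressed B lymphoid genes 6 rose (40%, beside 1.45% of all compared genes), 1 fell and 8 did not pass, with a median of 0.50. Vpreb1, whose product pairs with the heavy chain in the pre-B receptor, rose from 8.32 to 81.3 FPKM. Dntt, the terminal transferase that adds bases at joined antigen receptor segments, rose from 44.2 to 222 FPKM. Il7r, a cytokine receptor chain of lymphoid progenitors, rose from 0.917 to 4.75 FPKM. Cd24a, a surface glycoprotein of B cell progenitors and of other cells, was the fall, from 155 to 30.1 FPKM. The defining B cell gene Pax5 was listed at 0 in both libraries.

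T and NK and dendritic cell genes had calls in both directions. Of 9 expressed T and NK genes, 3 rose (33.3%, beside 1.45% of all compared genes), namely the surface receptor gene Cd6 (1.63 to 5.46 FPKM), the kinase gene Lck (1.88 to 5.99 FPKM) and Klrd1, an NK receptor chain (3.33 to 10.4 FPKM), while 2 fell (22.2%, beside 3.15%). Cd28, a co-stimulatory receptor, was among the falls and went from 39.0 to 9.19 FPKM. Of 18 dendritic cell genes 2 rose and 2 fell, 11.1% each way. Itgax, which encodes CD11c, rose from 10.6 to 75.3 FPKM, and H2-Ob, a chain of a regulator of peptide loading, from 6.13 to 15.6 FPKM. Id2, a factor that dendritic cells need, fell from 26.9 to 9.44 FPKM, and Sirpa, an inhibitory receptor of myeloid cells, from 26.2 to 11.6 FPKM.

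Of 23 stem and progenitor genes 2 were higher (8.70%, beside 1.45% of all compared genes) and 3 lower (13.04%, beside 3.15%), with a median log2 ratio of 0.09. Angpt1, which binds the receptor Tie2, went from 10.7 to 33.1 FPKM, and Gfi1b, a transcriptional repressor, from 16.8 to 34.98 FPKM. Muc13, a membrane mucin, fell from 3.52 to 0.223 FPKM, Ifitm1 from 22.7 to 2.11 FPKM and Plac8 from 1259 to 454 FPKM. Of 13 megakaryocyte and platelet genes, F13a1 and the tetraspanin gene Cd9 fell (15.4% of the list) and none rose. Among 9 mast cell, basophil and eosinophil genes the single call was a rise of Alox15, a lipoxygenase (0.228 to 2.05 FPKM). Of 26 erythroid, haem and iron genes the single call was the fall of Hbb-b1, whose span overlaps the near-identical Hbb-b2.

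**Figure D2:**
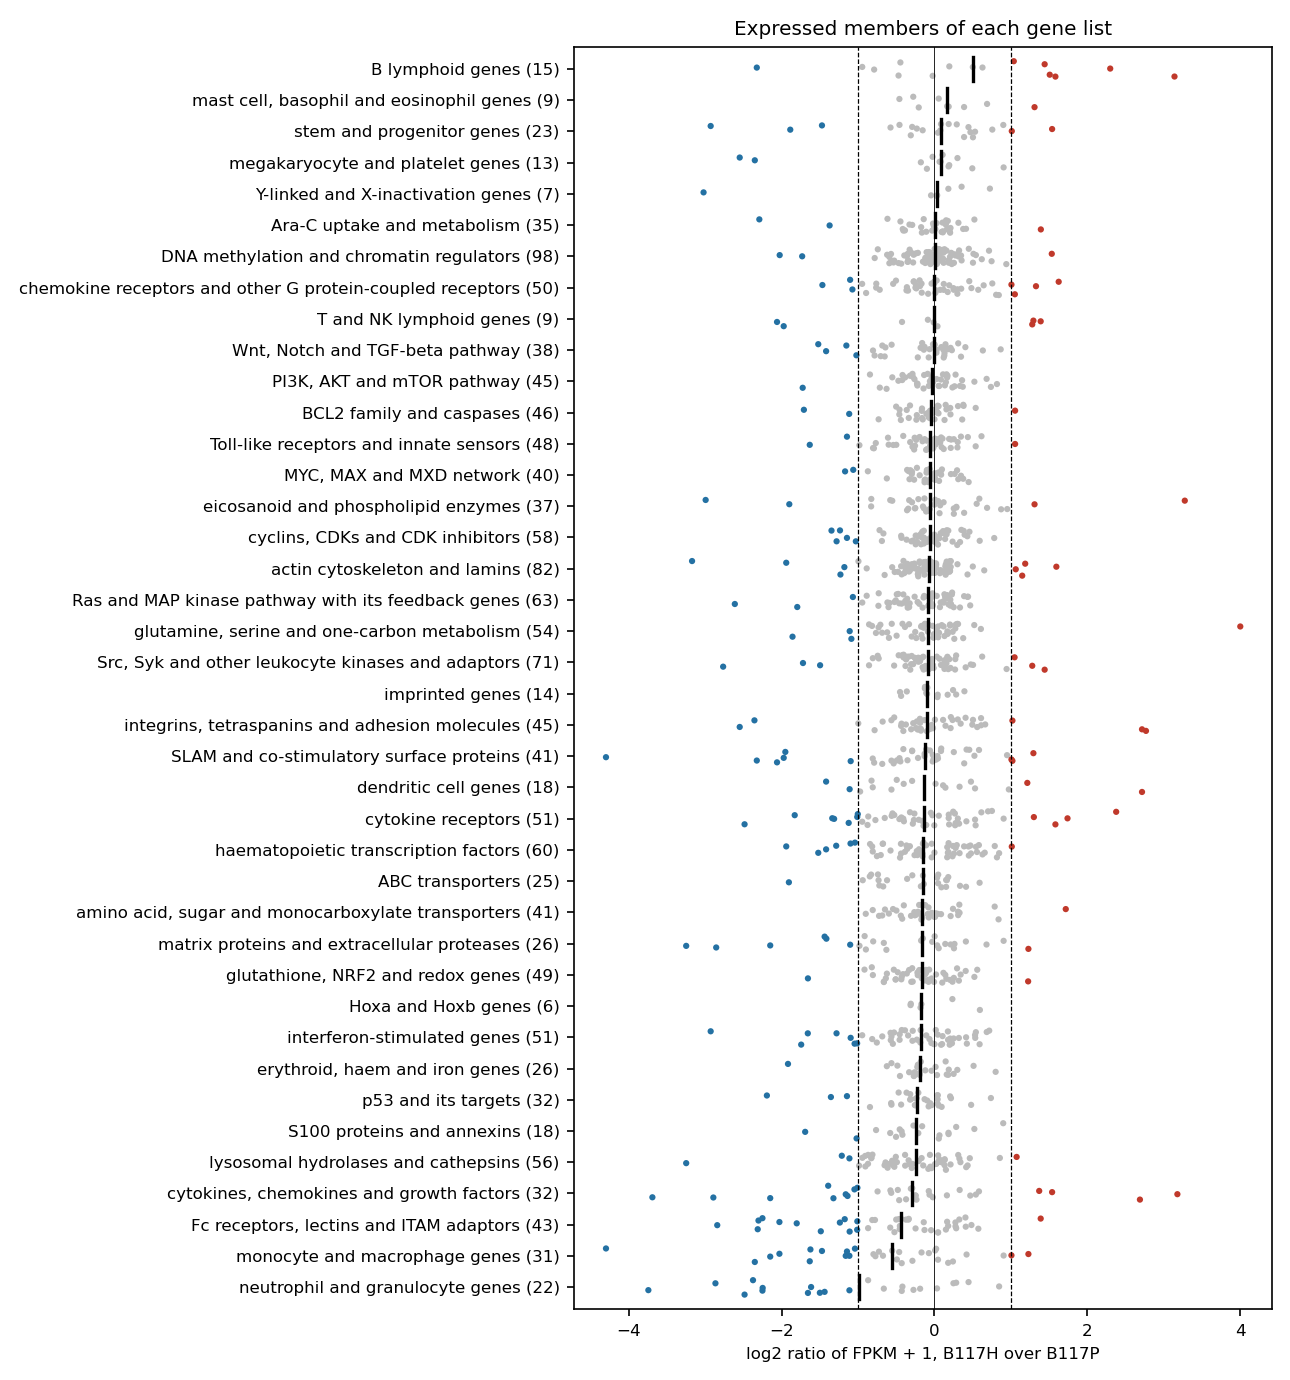
Each point is an expressed member of a gene list (number of expressed members in brackets), placed by its log2 ratio of FPKM + 1, B117H over B117P; red is higher, blue lower, and the black bar is the list's median. Lists are in the order of their medians, from -0.99 for the neutrophil list at the bottom to 0.50 for the B lymphoid list at the top, dashed lines mark the 2-fold rule, vertical spread is for legibility only, and lists with fewer than 5 expressed members are left out.

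Of 60 expressed transcription factors of haematopoiesis 1 rose (1.67%, beside 1.45% of all compared genes), 6 fell (10%, beside 3.15%) and 53 did not pass, with a median of -0.15. Cebpb, a C/EBP factor of macrophages and of stress granulopoiesis, fell from 7.31 to 1.17 FPKM, 15.97% of the parental value. Id1, an inhibitor of basic helix-loop-helix factors, fell from 5.07 to 1.12 FPKM, and Id2, its relative, fell too. Gfi1, a repressor needed for neutrophil development, fell from 4.56 to 1.28 FPKM while its paralog Gfi1b rose. The other falls, of Irf8, a monocyte and dendritic cell factor (119 to 57.2 FPKM), and Klf3 (2.67 to 0.713 FPKM), were smaller in ratio. None of the 6 expressed Hoxa and Hoxb genes passed the rule, and Hoxa5 had the ratio farthest from zero, 0.60 (3.04 and 5.10 FPKM).

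Among cytokine receptors, 4 of 51 expressed genes were higher (7.84%, beside 1.45% of all compared genes) and 7 lower (13.7%, beside 3.15%), the median being -0.14. The largest rise was of Il18r1, the binding chain of the interleukin-18 receptor, from 16.1 to 87.7 FPKM. Pdgfrb, which binds platelet-derived growth factor, went from 1.55 to 7.54 FPKM, and Il7r rose as given above. Beside Csf3r, the receptor Lifr for leukaemia inhibitory factor fell from 15.4 to 3.62 FPKM. Csf2ra, the binding chain of the GM-CSF receptor, was at 48.9 and 19.1 FPKM and was picked with its values known. Of 50 chemokine and other G protein-coupled receptors and their regulators, 4 rose (8%) and 3 fell (6%). F2r, a thrombin receptor, rose from 0.480 to 3.57 FPKM, and Rgs18, a regulator of G protein signalling in platelets and myeloid cells, from 27.9 to 71.6 FPKM. Rgs14 fell from 8.04 to 2.27 FPKM and P2ry2, a nucleotide receptor, from 3.04 to 0.883 FPKM.

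Of 32 expressed genes of secreted ligands 4 rose (12.5%, beside 1.45% of all compared genes) and 9 fell (28.1%, beside 3.15%), with a median of -0.30. Ccl4 and Ccl3, a pair of inflammatory chemokines that are neighbours on chromosome 11, fell from 56.6 to 3.46 and from 166 to 21.5 FPKM. Nrg4, a neuregulin, rose from 0.798 to 15.3 FPKM, but its span overlaps Fbxo22. Penk, which encodes the precursor of enkephalins, rose from 1.46 to 14.9 FPKM. The other 2 rises were of Angpt1 and of Fgf13 (6.31 to 17.9 FPKM).

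Fc receptors, lectins and adaptors with an activation motif (ITAM) were the surface group with the lowest median. Of 43 expressed members 12 fell (27.9%, beside 3.15% of all compared genes), 1 rose and 30 did not pass, with a median of -0.44. Tyrobp, the adaptor DAP12 through which many myeloid receptors signal, fell from 288 to 39.3 FPKM, 13.7% of the parental value. Gp49a and Lilrb4, neighbouring inhibitory receptors of the immunoglobulin family, fell from 5.40 to 0.289 and from 12.5 to 1.74 FPKM, and reads of these near-identical paralogs can be shared. Trem3, a receptor of the family that signals through Tyrobp, fell from 12.03 to 1.74 FPKM. Klrd1 was the rise. Of 41 SLAM and co-stimulatory surface proteins 3 rose (7.32%) and 6 fell (14.6%). Cd24a, Cd28 and Ly6c2 were among these falls, and Cd6, Alcam (1.31 to 3.70 FPKM) and Emr1 were the rises.

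Among genes of signalling inside the cell, 3 of 71 leukocyte kinases and adaptors rose and 3 fell (4.23% each way, beside 1.45% and 3.15% of all compared genes). The adaptor genes Fyb (46.8 to 13.5 FPKM) and Sh3bp2 (5.25 to 1.22 FPKM) were among the falls. Blnk, the adaptor of the B cell receptor, rose from 0.442 to 2.92 FPKM, and Lck and Prkch (7.24 to 16.05 FPKM) were the other rises. Of 63 genes of the Ras and MAP kinase pathway none rose and 3 fell (4.76%), namely Ier3, an early response gene (8.20 to 0.505 FPKM), the phosphatase gene Dusp22 (10.3 to 2.25 FPKM) and Fos (8.99 to 3.77 FPKM). Of 45 genes of the PI3K, AKT and mTOR pathway the single call was a fall of Rictor, a subunit of mTOR complex 2 (26.5 to 7.32 FPKM). Of 38 genes of the Wnt, Notch and TGF-beta pathways none rose and 4 fell (10.5%, beside 3.15% of all compared genes): Id1, Id2, the Notch effector gene Rbpj (36.6 to 15.9 FPKM) and Lrrc33 (88.7 to 43.2 FPKM).

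The list of interferon-stimulated genes held falls and no rise. Of 51 expressed members 7 fell (13.7%, beside 3.15% of all compared genes) and 44 did not pass, with a median of -0.18. Ifitm1, a membrane protein that restricts virus entry, was at 9.31% of the parental FPKM. Usp18, the protease that removes ISG15 from proteins, fell from 5.32 to 0.889 FPKM, Isg15 itself from 4.59 to 0.773 FPKM and Rtp4 from 9.94 to 3.50 FPKM. All 7 had under 25 FPKM in B117P. Gbp11, a guanylate-binding protein gene that is not in this list, rose from 0.674 to 5.06 FPKM. The promoter of Isg15 is shown as an example of an interferon-responsive start region whose gene fell, from the same RefSeq table (GRCm38.p6, chr4:156200819-156201068, minus strand, 5′ to 3′ on the gene's strand). Capitals mark matches to AANNGAAA, the core repeat of an interferon-stimulated response element that IRF and STAT complexes bind, on either strand.
Isg15: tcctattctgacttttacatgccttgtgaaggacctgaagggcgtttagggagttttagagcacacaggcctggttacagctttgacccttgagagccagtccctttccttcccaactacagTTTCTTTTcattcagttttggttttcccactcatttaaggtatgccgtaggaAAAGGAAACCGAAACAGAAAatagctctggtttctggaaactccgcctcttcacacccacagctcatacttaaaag
There were 4 matches, of which 3 on the gene's strand overlap one another and start 76, 70 and 64 bases before the start, and 1 on the other strand starts 128 bases before it. The motif is common, and 21.6% of all 27025 promoters hold it. No share was compared between gene sets, for the reason given above.

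Of 46 BCL2 family and caspase genes, Casp4 (0.935 to 3.02 FPKM) rose, and Bcl2l14 (5.39 to 0.955 FPKM) and Bnip3 (25.7 to 11.3 FPKM) fell. These are 2.17% higher and 4.35% lower, beside 1.45% and 3.15% of all compared genes. Of 32 p53 genes and targets none rose and 3 fell (9.38%, beside 3.15% of all compared genes), with a median of -0.22: Trp53i11 from 10.9 to 1.597 FPKM, Gadd45b, a stress sensor, from 8.88 to 2.86 FPKM and Cdkn1a, the CDK inhibitor p21, from 23.6 to 10.1 FPKM. Of 58 cyclins, CDKs and inhibitors none rose and 5 fell (8.62%). Skp2, which marks CDK inhibitors for degradation, fell from 34.6 to 12.99 FPKM, Ccni from 67.7 to 27.3 FPKM and Ccne1, cyclin E1, from 13.9 to 5.33 FPKM, beside Cdkn1a and Cdk13 (12.1 to 5.44 FPKM). In the MYC network of 40 genes, the antagonists Mxd3 (9.002 to 3.45 FPKM) and Mxd1 (5.72 to 2.22 FPKM) fell (5%) and none rose. Of 98 chromatin regulators 1 rose (1.02%, beside 1.45% of all compared genes) and 2 fell (2.04%, beside 3.15%). Nsd1, a histone methyltransferase, fell from 3.21 to 0.0347 FPKM, under the level of 3 fragments on 2 kb, and Hmgn3, which binds nucleosomes, from 2.75 to 0.131 FPKM. Pcgf6, a Polycomb ring finger subunit, rose from 0.0442 to 2.03 FPKM.

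Metabolic genes moved one by one. Among 54 genes of glutamine, serine and one-carbon metabolism, Glul rose (1.85%, beside 1.45% of all compared genes) and 3 fell (5.56%, beside 3.15%). Glul, glutamine synthetase, had the largest ratio of the named genes, 4.003, and went from 0.0328 FPKM in B117P, under the level of 3 fragments on 2 kb, to 15.6 in B117H. Psph, the last enzyme of serine synthesis, fell from 15.6 to 3.59 FPKM, and Pycr1, of proline synthesis, from 2.78 to 0.752 FPKM. Among 37 eicosanoid and phospholipid genes, 2 rose and 2 fell (5.41% each way). The acyltransferase gene Lpcat2 rose from 0.521 to 13.7 FPKM, with a span that overlaps Capns2. Alox15 rose too, while Hpgd, a prostaglandin dehydrogenase, fell from 13.8 to 0.857 FPKM and Ptgs2, cyclooxygenase 2, from 4.68 to 0.522 FPKM. Among 49 glutathione and redox genes, Gstm1 fell from 39.9 to 11.98 FPKM and its family member Gsta4 rose from 2.15 to 6.38 FPKM. The calls made up 2.04% of that list each way. Of 25 ABC transporters only the exporter Abcc2 passed the rule (3.44 to 0.185 FPKM, 4% of the list). Of 41 amino acid, sugar and monocarboxylate transporters only Slc36a4 did (0.0481 to 2.45 FPKM, 2.44% of the list). Of 56 lysosomal genes 1 was higher (1.79%) and 3 were lower (5.36%), with a median of -0.25. Hpse, heparanase, fell from 9.598 to 0.116 FPKM, Ctsz, cathepsin Z, from 128 to 54.6 FPKM and Lyz2, lysozyme, from 68.7 to 31.2 FPKM, while Sgsh, whose span overlaps Card14, rose from 0.373 to 1.89 FPKM.

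Structural and adhesion genes also held some of the largest falls. Of 26 matrix and extracellular protease genes 6 fell (23.1%, beside 3.15% of all compared genes) and 1 rose (3.85%, beside 1.45%). Igfbp4, which binds insulin-like growth factors, fell from 102 to 13.2 FPKM and the protease inhibitor gene Serpinb1a from 87.2 to 31.6 FPKM, beside Hpse and Spp1. Of 45 integrin, tetraspanin and adhesion genes 3 rose (6.67%) and 2 fell (4.44%). Tspan13, a tetraspanin, rose from 14.9 to 107 FPKM while Cd9, another, fell from 30.5 to 4.39 FPKM, and Itgax rose while Itgb5, another integrin subunit, fell from 17.6 to 2.64 FPKM. Of 82 cytoskeleton and lamin genes 4 rose and 4 fell, 4.88% each way. Lmna, the A-type lamin gene, fell from 18.6 to 1.18 FPKM, Tmsb10, an actin-binding thymosin, from 277 to 71.6 FPKM and Capg, an actin-capping protein, from 95.5 to 40.2 FPKM. Actn2 rose from 0.0761 to 2.25 FPKM. Of 18 S100 and annexin genes, Anxa3 (66.4 to 19.9 FPKM) and Anxa2 (183 to 89.9 FPKM) fell (11.1% of the list) and none rose. None of 14 imprinted genes passed the rule.

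On the sex chromosomes, Ddx3y, a Y-linked helicase gene, was the only Y-linked gene compared and fell from 7.47 to 0.0432 FPKM. Uty, also Y-linked, had a mean just under the filter and was listed at 1.99 FPKM in B117P and at 0 in B117H. Both were above 3 FPKM in B140P and B140H. Uty was chosen after its values were seen.

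**Figure D3:**
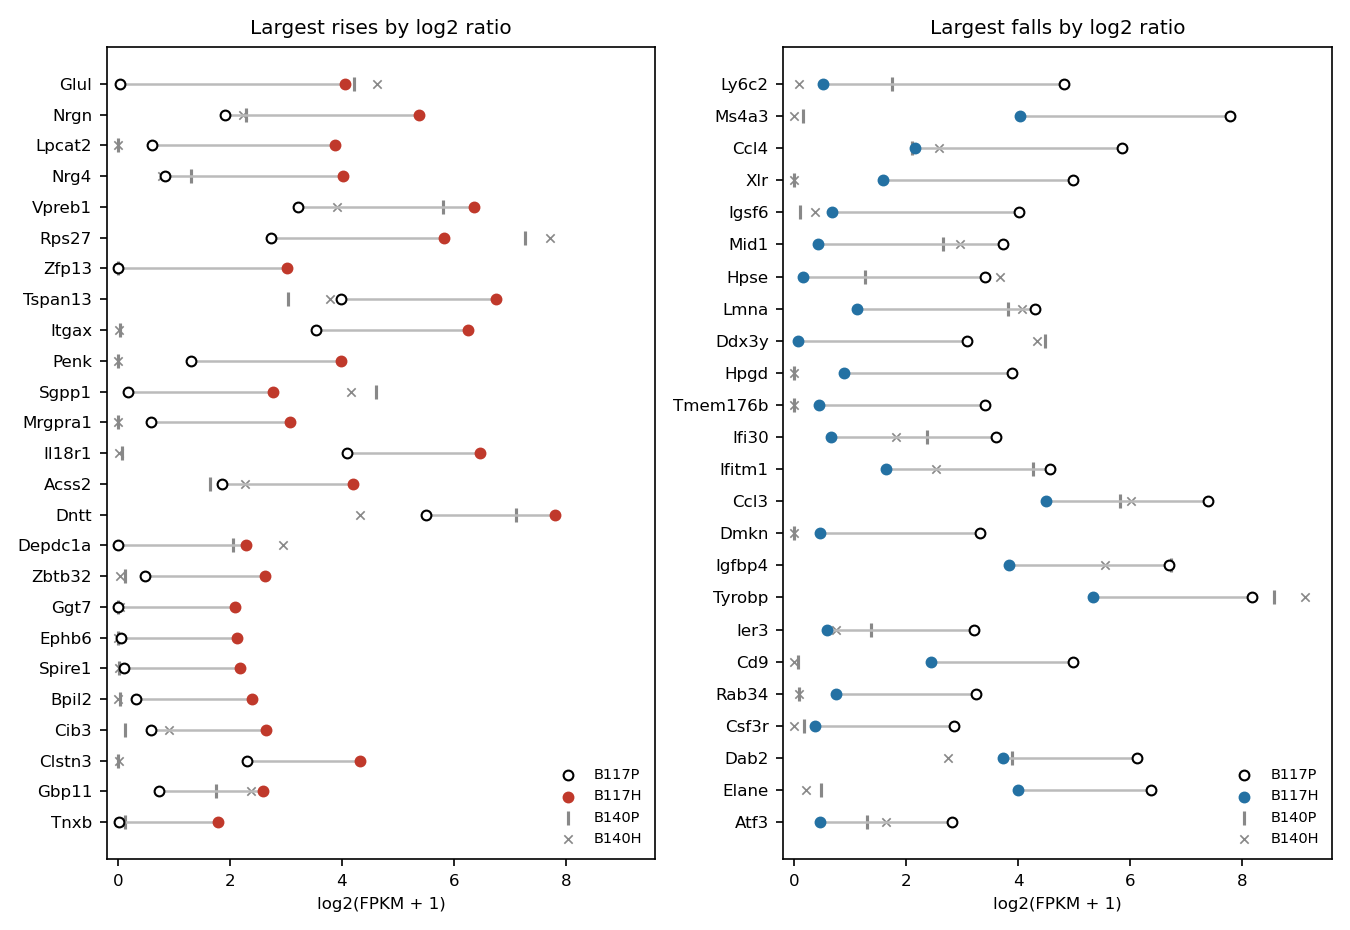
The largest rises (left) and largest falls (right) among the named genes, with log2(FPKM + 1) on the x axis, open circles for B117P and filled circles for B117H; grey bars and crosses give B140P and B140H, 1 library each. Many of the rises start under 1 FPKM in B117P, while falls such as Tyrobp, Ms4a3 and Ccl3 start at 166 FPKM or more.

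Other named genes were of many kinds. Nrgn, neurogranin, which binds calmodulin, rose from 2.77 to 40.8 FPKM. Acss2, a cytosolic acetyl-CoA synthetase, rose from 2.62 to 17.4 FPKM, Sgpp1, a sphingosine phosphate phosphatase, from 0.136 to 5.84 FPKM and Clstn3, a calsyntenin, from 3.92 to 18.9 FPKM. Zbtb32, a zinc finger repressor of lymphocytes, rose from 0.396 to 5.20 FPKM. Zfp13, Depdc1a and Ggt7 were listed at 0 in B117P and at 7.15, 3.87 and 3.28 FPKM in B117H, where a 0 may also be an estimate that failed. Among the falls, Dab2, an endocytic adaptor, went from 68.7 to 12.3 FPKM and Ifi30, a lysosomal thiol reductase, from 11.1 to 0.569 FPKM. Mid1, an X-linked ubiquitin ligase, fell from 12.2 to 0.331 FPKM, Tmem176b from 9.62 to 0.363 FPKM and Atf3, a stress-induced factor, from 6.07 to 0.369 FPKM. The unnamed gene LOC100302567 had a lower ratio still (2186 FPKM in B117P, listed at 0 in B117H), but its span overlaps the ribosomal protein gene Rps16, at 2164 and 2095 FPKM, and it was chosen after its values were seen. The spans of Ctsz, Mxd3, Mid1, Igsf6, Rps27 and Hoxa5 also overlap other listed genes.

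Many of the lower genes lay together along the genome. The median log2 ratio of the 10 nearest expressed neighbours was at or below -0.5 for 48.6% of the lower genes and for 3.87% of the genes not past the rule. It was at or above 0.25 for 22.1% of the higher genes and for 5.76% of those not past the rule. The autosomes with the largest shares of lower genes among those compared were chromosome 13 (70 of 386, 18.1%), chromosome 15 (42 of 398, 10.6%) and chromosome 19 (29 of 378, 7.67%). Chromosomes 12 and 16 moved as wholes by less than the rule. On chromosome 12, 86.8% of 341 genes had a ratio above zero with a median of 0.43, and on chromosome 16, 9.76% of 328 genes did, with a median of -0.47. In the B140 pair the same genes had medians of -0.04 on chromosome 12, 0.09 on chromosome 13 and 0.16 on chromosome 16.

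**Figure D4:**
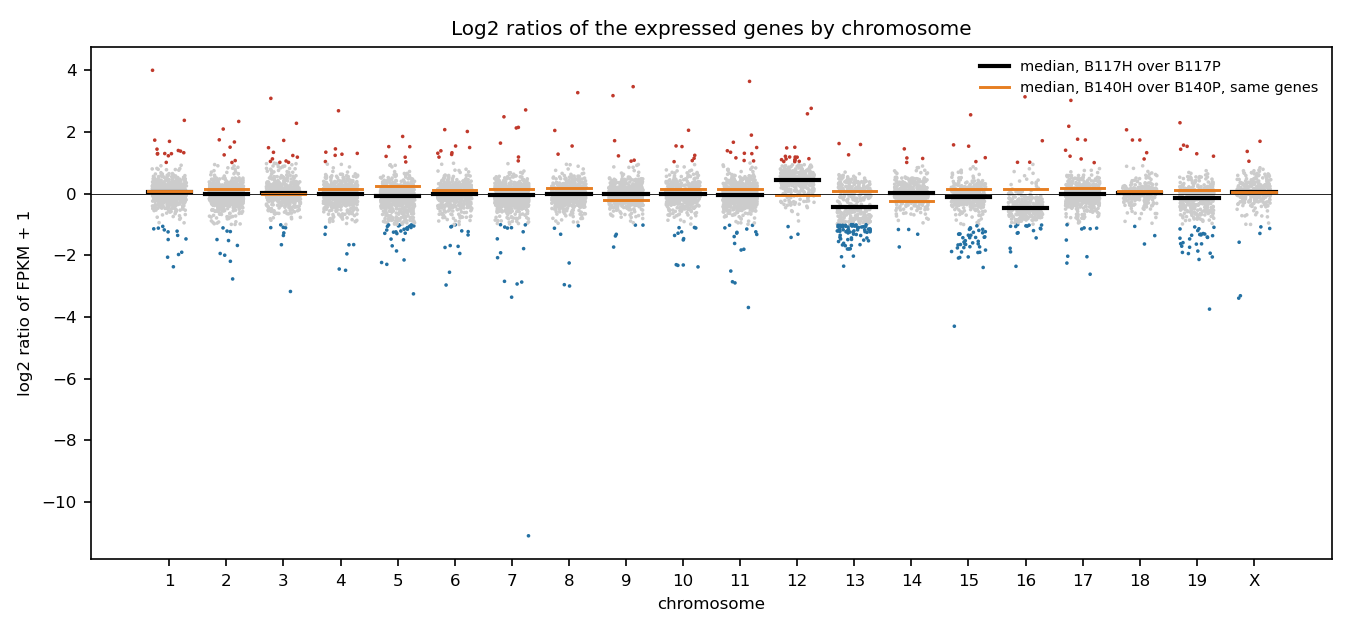
Each point is the log2 ratio of FPKM + 1, B117H over B117P, of 1 compared gene on the chromosome named on the x axis, with red for higher and blue for lower genes; black bars are medians and orange bars the medians of B140H over B140P for the same genes. Black bars for chromosomes 12, 13 and 16 lie at 0.43, -0.44 and -0.47, away from the orange bars, and the point near -11 is LOC100302567, which overlaps Rps16.

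To describe these stretches, windows of 11 neighbouring expressed genes with a median at or below -0.5, or at or above 0.5, were merged. The stretches were chosen on the same values, so what lies in them is a description. There were 18 lower stretches with 729 genes, 7.29% of those compared, and they held 173 of the 315 lower genes (54.9%). There were 9 higher stretches with 233 genes (2.33%), and they held 22 of the 145 higher genes (15.2%). On chromosome 13, 203 genes at chr13:3537321-58512510 (mm9) had a median of -0.85, close to 49.5% of the parental FPKM, while the other compared genes of the chromosome had a median log2 ratio of 0.10. In this stretch 69 genes were lower, among them F13a1, Ly86, Serpinb1a, Dusp22, Nsd1, Mxd3 and Rgs14, while Actn2 was the rise. On chromosome 15, 56 genes at chr15:3932035-36164932 had a median of -1.31, and 38 were lower, among them Dab2, Lifr, Fyb, Rictor and Skp2, while Il7r was the rise. On chromosome 5, 52 genes at chr5:77739509-104870069 had a median of -0.75, and the 15 lower genes included Dck, Hpse, Plac8, Anxa3, Ccni and Spp1. The B140 medians of these stretches on chromosomes 13, 15 and 5 were 0.13, 0.04 and 0.16. Other stretches moved the same way in both pairs. The 32 genes at chr3:142283627-159598139 had a median of 0.87, and 0.83 in the B140 pair, with 9 of them higher and 3 lower in B117H. This stretch overlaps a lower stretch at chr3:138121924-144383287, whose median was -0.28, and 0.77 in the B140 pair. Genes in the overlap are counted in both the 729 and the 233. A stretch of 11 genes on chromosome 14 had -0.61, and -0.41 in the B140 pair.

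Gene lists differed in how many of their falls lay in such stretches. Of the falls in the neutrophil list 2 of 11 did, in the Fc receptor list 1 of 12 and in the monocyte list 5 of 11. In the matrix list it was 4 of 6 and in the cyclin list 3 of 5. It was 2 of 3 in the leukocyte kinase list and in the G protein-coupled receptor list, and 2 of 4 in the Wnt, Notch and TGF-beta list. The single falls of the PI3K list (Rictor) and of the ABC list (Abcc2) lay in such stretches too. In the interferon list it was 2 of 7, in the SLAM list 0 of 6 and in the p53 list 0 of 3. With genes of the stretches left out, the medians were -0.76 for the neutrophil list, -0.40 for the Fc receptor list and -0.36 for the monocyte list, and within 0.01 of zero for the matrix and the cyclin list. Without the stretches, 142 genes were lower among 9041, and 45.2% of the changed genes were higher, beside 31.5% with the stretches kept.

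A compact run of falls lay on chromosome 19, and it was chosen after its values were seen. From Cox15 to Fbxw4, at chr19:43764179-45734683 (mm9, 1.97 Mb), 20 of 22 expressed genes were lower. Their FPKM ranged from 5.40% to 61.6% of the parental value, with a median of 31.2%. Within it, Ndufb8, a subunit of respiratory complex I, fell from 804 to 241 FPKM, and Scd2, a fatty acid desaturase, from 720 to 187 FPKM. Mrpl43, of the mitochondrial ribosome, fell from 126 to 28.1 FPKM, Peo1, the mitochondrial DNA helicase Twinkle, from 32.1 to 6.98 FPKM and Cox15, of haem A synthesis, from 28.3 to 9.59 FPKM. Chuk, a kinase of the NF-kB pathway, fell from 63.0 to 20.3 FPKM, and Hif1an, which hydroxylates HIF, from 31.1 to 9.35 FPKM. Abcc2, the only ABC transporter that passed the rule, lies in this run. The exceptions were Scd4 and Sec31b. The 10 expressed genes before the run had a median of 77.4% of the parental FPKM, the 10 after it 64.7%, and none of these 20 was lower. Its ends were chosen on the same values, so the contrast with its flanks is a description. The run lies in a lower stretch at chr19:42221879-46815585, where 51 genes had a median log2 ratio of -0.86 and 22 were lower. In the B140 pair the 22 genes from Cox15 to Fbxw4 had a median log2 ratio of 0.16 and none was lower. Cox15 shares its listed span with Entpd7, and Fbxw4 with Dpcd.

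**Figure D5:**
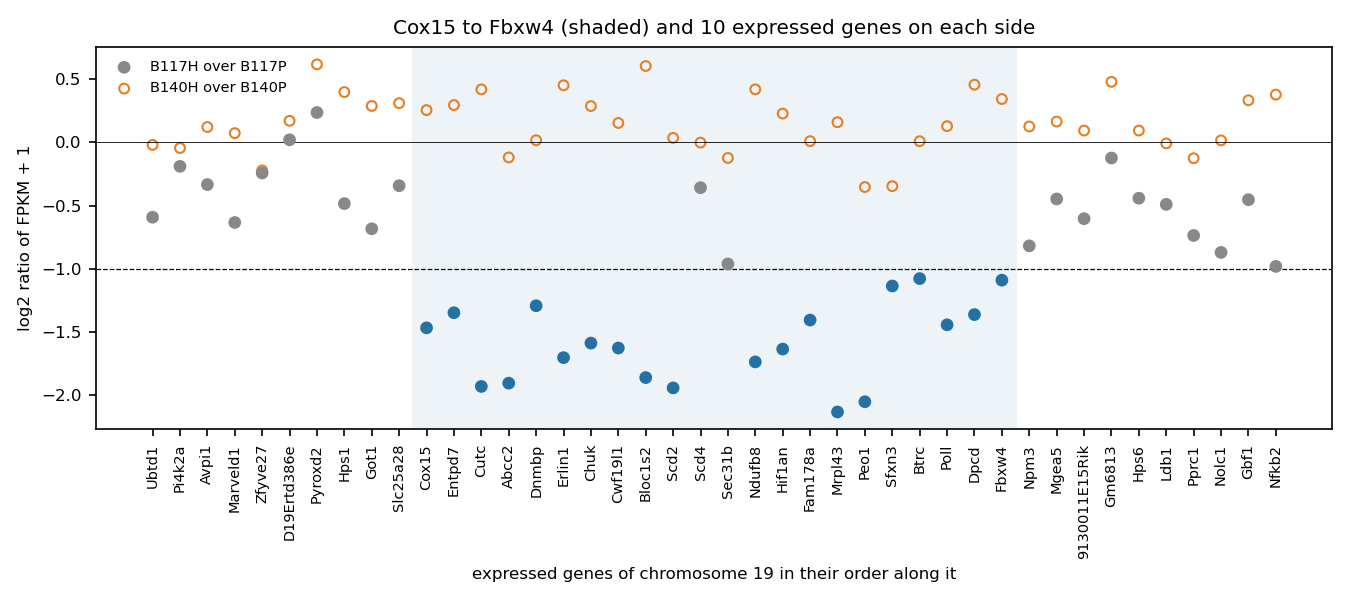
Log2 ratios of FPKM + 1 for expressed genes of chromosome 19 in their order, with filled points for B117H over B117P (blue where lower) and open orange points for B140H over B140P; the dashed line marks the 2-fold rule. In the shaded run from Cox15 to Fbxw4, 20 of 22 filled points lie below the line, and none of the 10 genes on either side does. The run was chosen on these values.

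Few of these changes were found in the same direction in the B140 pair, where 9510 genes were compared by the same rule and 209 were higher (2.2%) and 145 lower (1.52%). For the overlap, the 2-fold rule was put to the B140 ratio of each of the 9995 genes, with no minimum FPKM in the B140 lines. On that reading 1.79% of the 9995 were higher and 1.27% lower in B140H. Of the 145 genes higher in B117H, 6 were also higher in B140H (4.14%) and 10 were lower there (6.90%). Of the 315 genes lower in B117H, 8 were also lower in B140H (2.54%) and 25 were higher (7.94%). Of the 145 higher genes 65, and of the 315 lower genes 85, were under 1 FPKM in both B140 lines. The same share of all 9995 compared genes is not given here, so these counts are not read as a trait of the changed genes. Among the named genes, Dck, Ifitm1, Ly6c2, Igfbp4 and Dab2 were lower in both pairs. Their B140 log2 ratios were -2.45, -1.73, -1.66, -1.18 and -1.14. Whether the 4 libraries were normalised together is not given in the sources used here. Changes were therefore set side by side as ratios within a pair. FPKM levels of the B140 lines are also given for some genes, and are drawn in the plot of the largest rises and falls. These levels may not be on the same scale as those of the B117 lines.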

How the data were processed

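RNA of B117P and B117H, 1 library each, was compared, with B140P and B140H beside them. The deposited unit is FPKM for each gene, at mm9 positions, made by the authors with TopHat2 2.0.4 and Cuffdiff, per the submitters' processing notes. No reads were realigned. Listed starts count from 0 (6043 of 18708 RefSeq symbols had equal spans on that reading, 431 on the other), so 1 was added. Small RNA genes (Mir, Snora, Snord, Scarna, Rnu) were left out. Genes with a mean of 1 FPKM or more were compared as log2 ratios with a pseudocount of 1 and a 2-fold rule, since 1 library a side allows no test. Because FPKM is scaled to the whole library, a few abundant genes can shift all others.

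The spacing of low values gave the depth, from 761 genes with 1 transcript of 3 kb or more, where 76.4% (B117P) and 74.1% (B117H) of the low values lay within 0.15 fragments of a whole number. The unit came from the same values, so these shares are no independent check.

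The genes named were the 25 largest rises and falls without small RNA genes and unnamed clones, Dck, the cell type markers, the genes at the edge of the rule, and in each of 41 lists up to 4 members past the rule with the largest ratios, or the 1 largest where none passed. Counts of 5 or fewer were named in full where stated, and these and other genes beyond the rule were chosen after their values were seen. Some genes that the rule takes are not reported here. Members and lists were chosen with earlier results of these data known. Overlapping or near-identical genes can share reads. The code of the rule was run on simulated data with planted changes and an assumed noise. That run checks the code and says nothing on the error of these libraries. Alternatives were another pseudocount, other filters, a 4-fold rule, centring, TPM, and leaving out overlapping genes or genes at 0. Leaving out stretches of neighbouring changed genes was added after seeing the data. Python 3.11.15, numpy 2.4.6, pandas 2.3.3 and matplotlib 3.10.9 were used.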

Additional observations from a re-analysis of the deposited data

Results flagged for a closer look

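Among the 129 named genes, 15 passed the 2-fold rule in opposite directions in the B117 and B140 pairs, with no minimum FPKM in the B140 lines. The values are the B117 log2 ratio minus the B140 one. Each pair has 1 library a side, so no difference was tested.

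Higher in B117H and lower in B140H were Dntt (difference 5.08), Vpreb1 (5.03) and Angpt1 (2.94). Lower in B117H and higher in B140H were Hpse (-5.67), Hbb-b1 (-4.95), Hmgn3 (-4.79), F13a1 (-4.66), Spp1 (-4.05), Cd24a (-4.05), Trem3 (-3.30), Tmsb10 (-3.19), Cd28 (-3.10), Trem2 (-3.03), Ccne1 (-2.48) and Ctsz (-2.36). The monocyte genes F13a1, Spp1 and Trem2 are among them, and so are the B lymphoid genes Vpreb1, Dntt and Cd24a. Hbb-b1 is listed at 0 in B117H and near 0 in B140P, and its span overlaps Hbb-b2.

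The 692 small RNA genes left out of the comparison carried signal. In B117P 37 of them were above 0 FPKM and made up 98.1% of the summed FPKM, and in B117H 37 were above 0 and made up 68.6%. Because FPKM is scaled to transcript length, these are not shares of the fragments sequenced.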

How the results depend on the processing

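No paired analysis was possible because B117P and B117H, with 1 library each, make up only 1 pair. The 145 higher and 315 lower genes became 223 and 456 with a pseudocount of 0.1, 66 and 207 with a minimum mean of 5 FPKM, 27 and 49 with a 4-fold rule, and the lower genes became 142 without the genes of the stretches, an alternative chosen after seeing the data. Fewer genes enter or a larger ratio is asked under the last 3. No filter, a mean over all 4 libraries, centring, TPM over genes other than small RNA genes, leaving out overlapping genes and leaving out genes at 0 kept both counts within 1.5 times, as did the higher genes without the stretches. Dck kept its direction and stayed past the rule wherever it was kept, between -2.26 when centred and -2.57 with a pseudocount of 0.1, and it lies in one of the stretches and has no value without them. No named gene changed direction where it kept a value. Of the 129 named genes, 75 kept one with a minimum mean of 5 FPKM and 97 without the stretches. Of the named genes, 2 dropped inside the rule, Lrrc33 and Anxa2, both when centred and with TPM. List medians moved by over 0.1 for 13 of 41 lists without a filter, 10 with a minimum of 5 FPKM, 7 without the stretches, 6 without overlapping genes and 5 with the mean over 4 libraries. Genes under about 0.08 FPKM rest on a few fragments, and no replicate sets the size of chance differences.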
